A study of Mus musculus with 2 samples.

Results

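Accessible chromatin was described around 7 mouse microRNA genes that are known for their roles in blood cells, namely Mir223, Mir142, Mir150, Mir155, Mir146, Mir125a and Mir126a. They were taken by name from the GENCODE M21 annotation on mm10, where they make up 7 of 2202 annotated microRNA genes on 21 chromosomes. Every deposited peak that overlapped a gene or the 25 kb on either side of it was collected. In the list used for the leading values, 26 of 31532 merged regions fell in these 7 windows.

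The assay was ATAC-seq, in which a transposase inserts adapters into DNA that is not covered by nucleosomes, so that peaks mark open chromatin. The series holds 2 libraries of 1 group, haematopoietic stem cells (HSC) of the C57BL/6J strain from adults 5 to 6 weeks old, with no treatment or genetic change named. They are numbered as biological replicates 1 and 2, yet both carry 1 donor identifier, sex is recorded as not collected, and no markers used to isolate the cells are named. For replicate 2 the labels give 50000 starting cells and a fragment size range of 125 to 278, and for replicate 1 they give neither. With 1 group of 2 libraries no test between conditions was possible, and the values below are descriptions.

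Each peak list is a set of intervals with a signal, a summit and a −log10 q. The leading values come from the conservative list, which is thresholded on the irreproducible discovery rate (IDR, a measure of how well the ranks of peaks repeat). Of the other 7 lists, 3 draw on both libraries (IDR thresholded, replicated, pseudoreplicated), and each library has its own IDR thresholded and pseudoreplicated list. Within a list, peaks that overlapped became 1 region, which kept the signal and summit of its strongest peak. The conservative list held 31532 regions, the IDR lists held 34588 in replicate 1 and 22434 in replicate 2, and the pseudoreplicated lists held 78665 in replicate 1 and 58113 in replicate 2. The number of sequenced reads is not given with the lists, so the depth behind a signal is unknown. A lower signal can come from fewer cells in which a site is open or from less opening per cell, and these cannot be told apart, just as fewer cells and less RNA per cell cannot be in bulk RNA.

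MicroRNA genes are transcribed as long primary transcripts, which Drosha and Dgcr8 cut in the nucleus to a hairpin. Xpo5 carries the hairpin to the cytoplasm, Dicer1 cuts it to a short duplex, and 1 strand is loaded into an Argonaute protein, where its seed pairs with target messenger RNAs. Because the primary transcript can start far from the hairpin, an open region at a host gene's start may be the promoter of the microRNA. miR-223 is known from granulocytes and monocytes, miR-142 from all blood lineages, and miR-150 from mature lymphocytes, where it targets Myb. miR-155 and miR-146a are induced in activated immune cells, miR-125a is abundant in stem cells, and miR-126 restrains stem cell cycling and is also the microRNA of endothelium.

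The mature arms are shown because the seed, bases 2 to 8 from the 5′ end, sets which messages a microRNA can pair with. Capitals mark the seed in these 12 RefSeq sequences on GRCm38.p6.
mmu-miR-223-5p: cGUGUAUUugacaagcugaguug
mmu-miR-223-3p: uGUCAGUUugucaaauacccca
mmu-miR-142a-5p: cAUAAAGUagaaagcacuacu
mmu-miR-142a-3p: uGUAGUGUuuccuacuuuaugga
mmu-miR-150-3p: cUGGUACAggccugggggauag
mmu-miR-155-5p: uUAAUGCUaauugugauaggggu
mmu-miR-155-3p: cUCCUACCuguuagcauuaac
mmu-miR-146a-5p: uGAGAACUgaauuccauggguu
mmu-miR-146a-3p: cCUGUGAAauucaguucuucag
mmu-miR-125a-5p: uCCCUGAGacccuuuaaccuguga
mmu-miR-125a-3p: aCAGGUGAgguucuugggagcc
mmu-miR-126a-3p: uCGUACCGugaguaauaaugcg
No seed was shared between the members among these printed arms. The RefSeq table had no entry for miR-150-5p or miR-126a-5p, so the seeds of those arms are not covered. Among 1738 mature mouse sequences in the RefSeq table, the miR-146a-5p seed was also that of miR-146b-5p, and the miR-125a-5p seed was also that of miR-125b-5p, miR-351-5p, miR-6367 and miR-6394. The other 10 printed arms had seeds found in no other entry of that table.

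Open chromatin was found in the window of every member. In the conservative list Mir142 had 6 regions, Mir150 and Mir155 had 5 each, Mir126a had 4, Mir146 had 3, Mir125a had 2 and Mir223 had 1. Thus 7 of 7 members had a region within 25 kb, against 53.4% of all 2202 microRNA genes (1175 genes) and 64.9% of the 968 with a RefSeq hairpin. The median microRNA gene had 1 region and the most had 10, and 5 or more regions occurred at 119 genes (5.40%). Mir142, Mir150 and Mir155 were among those 119, whereas Mir223 stood at the 56.8th percentile of the count.

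The order of the counts differed between the libraries. In the IDR list of replicate 1 the counts were 7 for Mir142, 6 for Mir126a, 5 for Mir150, 5 for Mir155, 4 for Mir146, 3 for Mir223 and 2 for Mir125a. In that of replicate 2 they were 5 for Mir150, 4 for Mir142, 4 for Mir126a, 2 for Mir155, 2 for Mir146, 1 for Mir125a and 1 for Mir223. All 7 members kept a region in each of the 8 lists, and over all microRNA genes the share with a region was 54.1% in the replicate 1 list and 46.5% in the replicate 2 list. Mir150 stood below Mir142 and Mir126a in replicate 1 and above both in replicate 2, so no order among these 3 can be read, whereas Mir125a and Mir223 were below them in both IDR lists. In the replicate 1 pseudoreplicated list Mir223 had 7 regions, as many as Mir150.

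**Figure D1:**
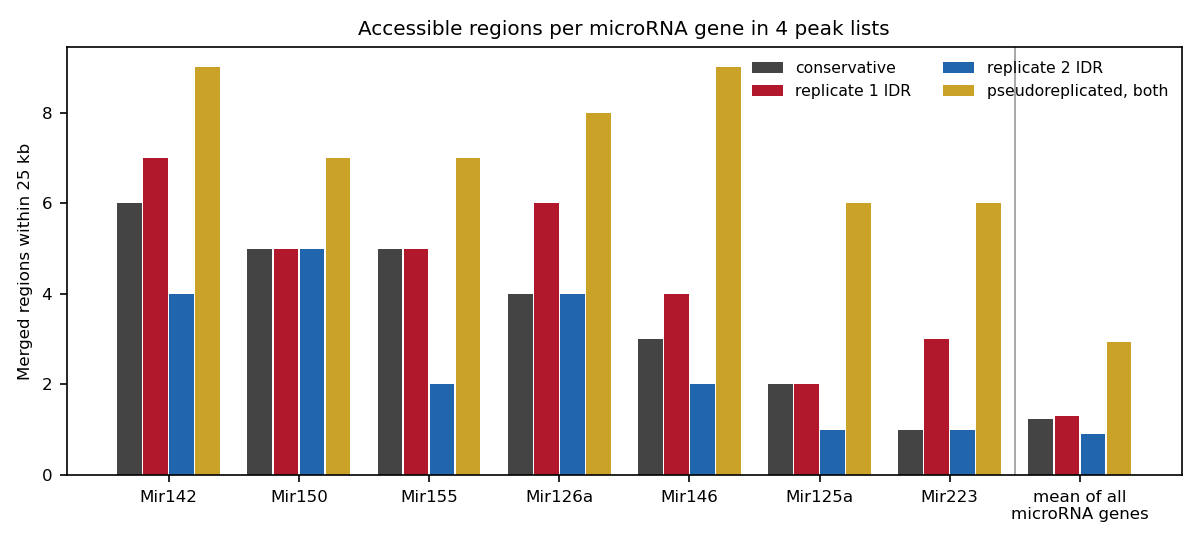
Number of merged accessible regions overlapping each microRNA gene or the 25 kb on either side (y axis) in 4 peak lists (bars), with the mean over all 2202 microRNA genes at the right. Mir142 has the most regions in the conservative list (6) and Mir223 the fewest (1), and the mean of all microRNA genes in that list is 1.25.

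Few of these regions lay at the hairpin itself. In the conservative list only Mir155 had a region within 1 kb of its hairpin, 1 of 7 members, where 9.81% of all microRNA genes had one. In the less strict pseudoreplicated list of both libraries Mir142, Mir150 and Mir155 did, 3 of 7, beside 17.1% of all. Edge to edge, the nearest conservative region was 1024 bp from the Mir142 hairpin, 2377 bp from Mir125a, 2597 bp from Mir223, 10591 bp from Mir146 and 12154 bp from Mir126a.

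The starts of host genes, by contrast, were mostly open. A host is a gene whose span holds the hairpin on the same strand, and 5 members had one, Mir126a having a second. In the conservative list 4 of the 6 hosts had a region within 1 kb of an annotated transcription start site (TSS), namely F630028O10Rik, Mir142hg, Mir155hg and Spaca6, beside 43.2% of the 30751 protein-coding, lincRNA and antisense genes. Egfl7 and the readthrough gene Gm20532 had none there, and both had one in the IDR list of both libraries. Hosts with many annotated starts have more chances to be counted, and Spaca6 has 15 and Egfl7 19 of them.

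**Figure D2:**
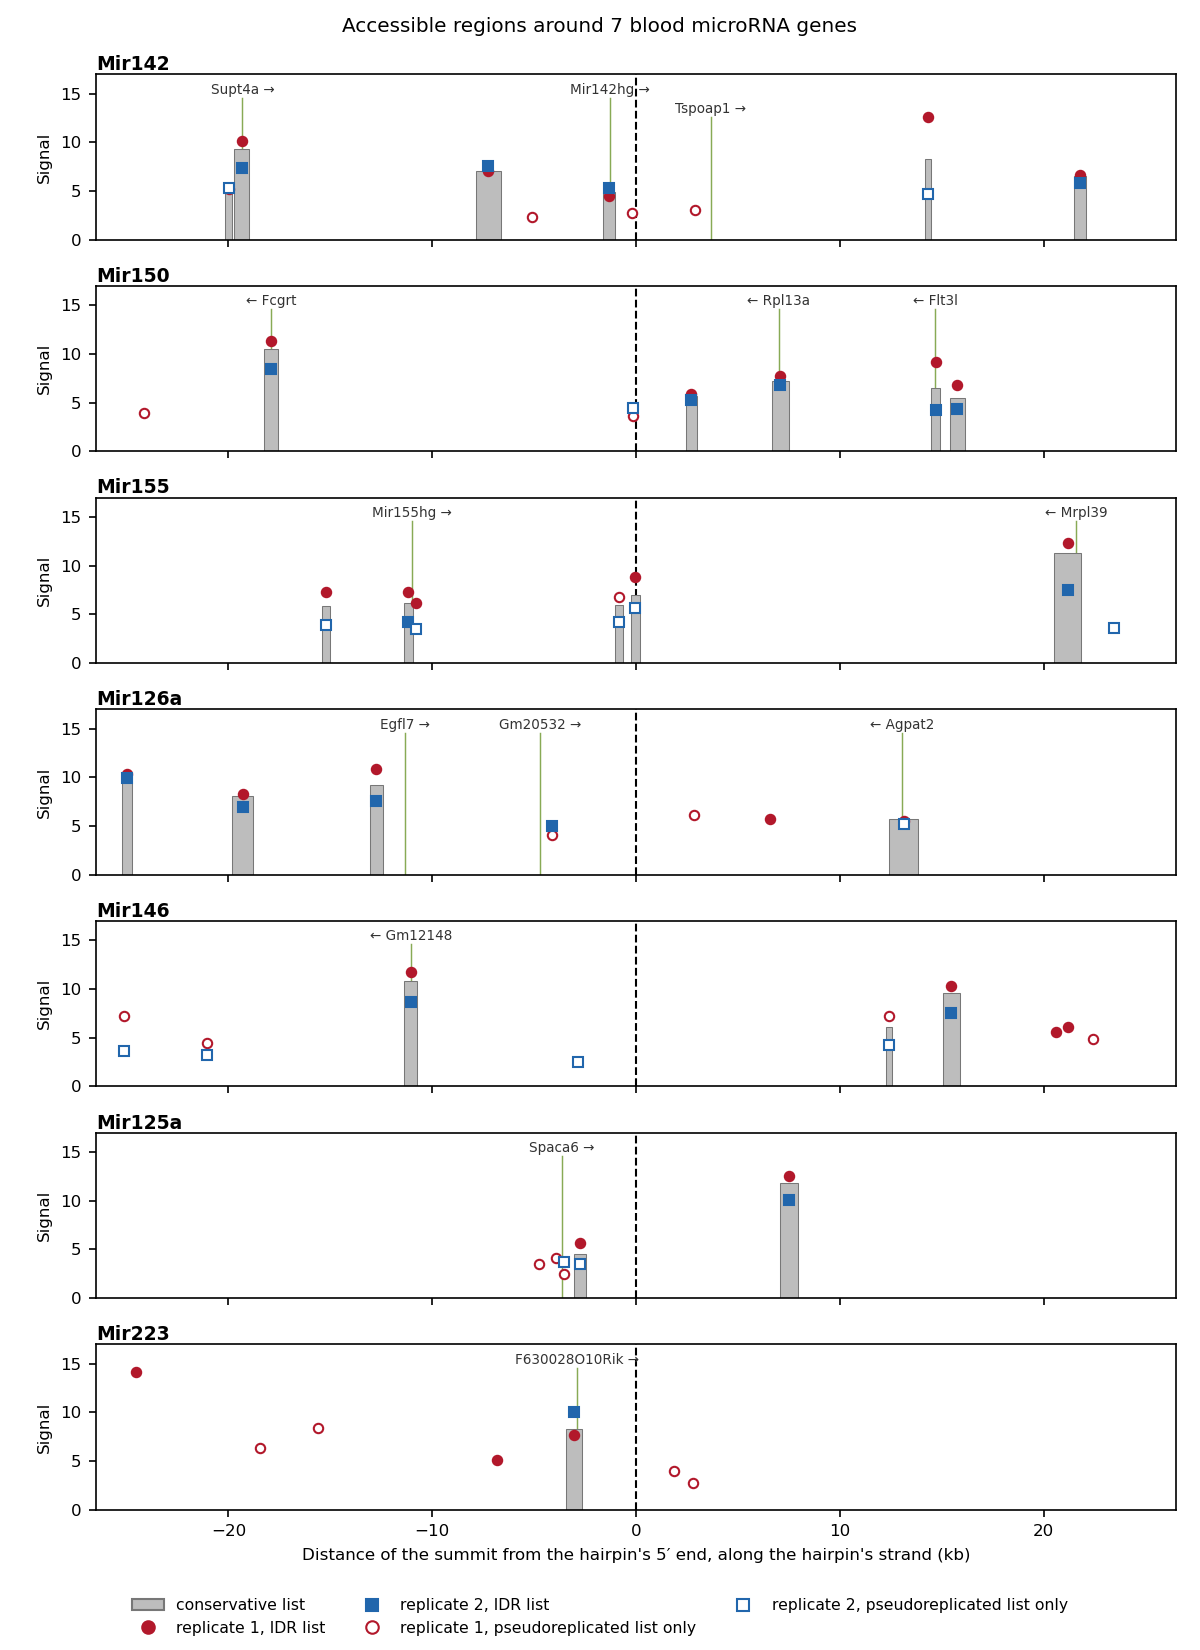
Signal (y axis) of each accessible region against the distance of its summit from the 5′ end of the hairpin in kb (x axis, along the hairpin's strand, hairpin at the dashed line). Grey bars are conservative regions drawn at their width, red circles and blue squares are replicates 1 and 2 (filled in the IDR list, open where only the pseudoreplicated list holds the region), and green lines with arrows mark the starts of genes named in the text. Mir223 has a single grey bar, at the start of F630028O10Rik, and only Mir155 has one at the hairpin.

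Mir223 lies on the X chromosome at chrX:96242817-96242926, plus strand, in an exon of F630028O10Rik, a transcript that GENCODE types as antisense and that starts 2891 bp upstream. Its 1 conservative region had its summit 143 bp upstream of that start and 3034 bp upstream of the hairpin. The signal was 8.25, at the 48.8th percentile of all conservative regions, and the region was in all 8 lists. Replicate 1 gave 7.65 and replicate 2 gave 10.03, so this region was higher in replicate 2, the less usual direction. The 201 bases around the summit (mm10, plus strand, chrX:96239683-96239883) follow, with a match to the GATA letters AGATAA, here on the other strand, in capitals. The printed bases end before the annotated host start.
Mir223 host start: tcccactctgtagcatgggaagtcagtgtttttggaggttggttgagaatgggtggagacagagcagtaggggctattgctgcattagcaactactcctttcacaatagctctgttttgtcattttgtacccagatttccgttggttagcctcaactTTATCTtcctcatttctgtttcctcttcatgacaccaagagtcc
The replicates parted at the other 6 regions of this window, all of which were found in replicate 1 and none in replicate 2. Of all 86702 regions in the pseudoreplicated list of both libraries, 27.3% were in lists of replicate 1 only and 7.75% of replicate 2 only. The strongest of the 6 Mir223 regions had its summit 24.5 kb upstream, with a signal of 14.1 in replicate 1, at the 92.5th percentile of that library's IDR list, and 8.65 in the list of both libraries. A second had 5.13 in the replicate 1 IDR list, 6835 bp upstream. The remaining 4 were in the replicate 1 pseudoreplicated list, at 2.80 to 8.42.

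Markers of granulocytes and monocytes, cells in which miR-223 is known to be abundant, also differed between the libraries, though not all in 1 direction. Of 8 such genes (Elane, Prtn3, Mpo, S100a8, S100a9, Lyz2, Csf1r and Itgam), 4 had a region within 1 kb of a TSS in replicate 1's IDR list and 0 in replicate 2's, where over all protein-coding genes the shares were 54.1% and 47.4%. In the pseudoreplicated lists 6 had one in replicate 1 and 4 in replicate 2, beside 65.6% of all protein-coding genes in replicate 1 and 63.9% in replicate 2. The summed signals of the 8 were 31.4 in replicate 1 and 14.9 in replicate 2, and signals in replicate 1 were higher over all regions too. So were the summed signals of the marker list of every other cell type given below. Erythroid genes, for example, had 21.4 in replicate 1 and 7.37 in replicate 2, and stem and progenitor genes 85.6 and 66.7. S100a8 had 7.02, S100a9 had 6.02 and Csf1r had 4.11 in replicate 1, and these 3 were in no list of replicate 2. Lyz2 had 6.08 in replicate 1 and 4.73 in replicate 2, and Itgam had 5.82 in replicate 1 and 4.48 in replicate 2. Prtn3 had 2.31 in replicate 1 and 2.62 in replicate 2, and Mpo had 3.03 in replicate 2 and was in no list of replicate 1. Elane, the granule protease of neutrophil precursors, had no region in any of the 8 lists. The part of such cells in the Mir223 regions of replicate 1 was not tested, and the region at the host's start was the higher one in replicate 2.

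Mir142 lies at chr11:87756864-87756927, plus strand, in an intron of the lincRNA Mir142hg, 1287 bp from its start, with Mir142b on the opposite strand. It had the most regions, 6, and 4 of their summits were within 1 kb of a TSS. The region at the Mir142hg start, 44 bp upstream of it, was one of the weakest of the conservative list, with a signal of 4.90 (3.98th percentile), although it was in all 8 lists. It had 4.47 in replicate 1 and 5.29 in replicate 2. Its sequence (mm10, plus strand, chr11:87755433-87755633) is shown as the promoter nearest to this hairpin, and none of the letters searched were found in it.
Mir142hg start: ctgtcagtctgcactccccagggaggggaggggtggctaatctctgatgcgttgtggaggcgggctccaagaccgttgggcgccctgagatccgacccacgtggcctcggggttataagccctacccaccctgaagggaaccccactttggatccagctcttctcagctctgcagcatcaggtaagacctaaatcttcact
A wider region with its summit 7242 bp upstream of the hairpin, 5955 bp before Mir142hg, was stronger than the host's start. It had 7.08 in the conservative list, 7.06 in replicate 1 and 7.60 in replicate 2, and was made of 3 peaks. In the conservative list the strongest region of the window was at Supt4a, a gene for a transcription elongation factor, with 9.26. It had 10.1 in replicate 1 and 7.40 in replicate 2 and was the strongest in neither library. A region in Tspoap1 was higher in replicate 1, with 12.6, and the one 7242 bp upstream was higher in replicate 2, with 7.60.
In an intron of Tspoap1, 14.3 kb downstream of the hairpin, a region of 250 bp parted the libraries most. It had 12.6 in replicate 1 and 4.67 in replicate 2, a log2 ratio of 1.43 of replicate 1 over replicate 2, at the 98.6th percentile of all shared regions. Right before the hairpin, 174 bp upstream, a faint region of 2.55 was in the list of both libraries and in the pseudoreplicated list of replicate 1, with 2.69, but in no list of replicate 2.

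Mir150 lies at chr7:45121757-45121821, plus strand, with no host, between genes that are dense at this place. All but 1 of its 5 conservative regions had summits at the TSS of a protein-coding gene. Fcgrt, the neonatal Fc receptor, had 10.5 (11.4 in replicate 1 and 8.48 in replicate 2). Rpl13a, a ribosomal protein, had 7.26. Flt3l, the ligand of the receptor Flt3 on early progenitors, had 6.56 at its start and a second region of 5.44 a further 1095 bp upstream.
All 5 were in all 8 lists. The Flt3l start had 9.13 in replicate 1 and 4.25 in replicate 2, and the Rpl13a start had 7.78 in replicate 1 and 6.81 in replicate 2. A region over the whole hairpin, with its summit 142 bp upstream, was absent from the conservative list and from the IDR list of each library. It had 4.35 in the IDR list of both libraries, and in the pseudoreplicated lists 3.59 in replicate 1 and 4.47 in replicate 2.

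Mir155 lies at chr16:84714140-84714204, plus strand, in an exon of Mir155hg, the noncoding BIC transcript, 10973 bp from its start. It was the only member whose hairpin lay inside a conservative region. The summit was 38 bp upstream of the hairpin and the signal was 6.95, with 8.85 in replicate 1 and 5.61 in replicate 2, where only the pseudoreplicated list held it. A second region 847 bp upstream had 5.95, with 6.83 in replicate 1 and 4.17 in replicate 2, and lay 270 bp after an internal Mir155hg start.
The sequence at the hairpin (mm10, plus strand, chr16:84714002-84714202) ends in 63 bases of the hairpin and holds a RUNX match (TGTGGT) and a C/EBP match (TTGCNNAA), in capitals.
Mir155 hairpin region: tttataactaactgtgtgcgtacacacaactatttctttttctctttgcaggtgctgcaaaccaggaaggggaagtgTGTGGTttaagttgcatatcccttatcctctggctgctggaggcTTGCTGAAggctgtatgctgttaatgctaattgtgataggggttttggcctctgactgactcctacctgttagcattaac
At the first Mir155hg start open chromatin came as 2 regions with a gap of 94 bases that holds the annotated start. The upstream one ended 58 bp before the start and had 6.16, with 7.30 in replicate 1 and 4.19 in replicate 2. The downstream one began 37 bp after it and was outside the conservative list, with 4.88 in the IDR list of both libraries, 6.17 in replicate 1 and 3.48 in replicate 2. The upstream region (mm10, plus strand, chr16:84702863-84703063) is shown because it was the only 1 of the 26 windows with a match to the NF-kappaB letters GGANTTTCC, in capitals on the other strand, and it was chosen for printing after that was seen.
Mir155hg start: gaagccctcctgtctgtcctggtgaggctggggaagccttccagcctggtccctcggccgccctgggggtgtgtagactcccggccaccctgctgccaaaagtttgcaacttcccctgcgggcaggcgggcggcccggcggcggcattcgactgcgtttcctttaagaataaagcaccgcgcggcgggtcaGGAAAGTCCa
Mrpl39, a mitochondrial ribosomal protein gene 21.2 kb downstream, held the strongest region of the window, with 11.3, 12.3 in replicate 1 and 7.56 in replicate 2. All 6 Mir155 regions with a signal in both libraries were higher in replicate 1, by more than the median of all shared regions. Their median log2 ratio of replicate 1 over replicate 2 was 0.76, beside 0.46 over all 48575 shared regions. In the IDR list of replicate 2 only 2 regions were held, at Mrpl39 and at the Mir155hg start. The pseudoreplicated lists held 6 regions in replicate 1 and 7 in replicate 2. A region 23.4 kb downstream of the hairpin, with 3.59, was in the replicate 2 list only.

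Mir146, the gene of miR-146a, lies at chr11:43374397-43374461, minus strand, with no host in GENCODE M21. No conservative region lay within 10 kb of the hairpin. The strongest, with a signal of 10.8, had its summit 11.1 kb upstream. The summit was in an exon of the lincRNA Gm12148, 32 bp from the start of that gene, which lies on the opposite strand to the hairpin. This region had 11.8 in replicate 1 and 8.67 in replicate 2 and was in all 8 lists.
Its sequence (mm10, minus strand, chr11:43385414-43385614) is shown as the strongest of the window. Capitals mark a PU.1 match (GAGGAAGT, on the other strand) and GGGATTTCC, a further form of NF-kappaB site that was added to the search only after this sequence had been seen.
Mir146 upstream region: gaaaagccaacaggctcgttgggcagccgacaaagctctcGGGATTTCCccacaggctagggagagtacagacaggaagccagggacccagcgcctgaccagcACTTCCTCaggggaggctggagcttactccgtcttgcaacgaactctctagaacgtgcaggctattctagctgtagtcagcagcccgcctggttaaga
GGGATTTCC was found in 1 of the 26 member windows and in 0.304% of all windows. Downstream of the hairpin, a region 15.5 kb away had 9.58, with 10.3 in replicate 1 and 7.58 in replicate 2, and another 12.4 kb away had 6.07. Less strict lists added more here, 9 regions in the pseudoreplicated list of both libraries.

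Mir125a lies at chr17:17830812-17830879, plus strand, in a row with Mir99b and Mirlet7e, inside Spaca6, a gene named for a sperm protein. The window had 2 conservative regions, and both were within 1 kb of a Spaca6 start. The stronger, 7505 bp downstream of the hairpin at a start inside the gene, had the highest signal of all 26 regions, 11.9 (86.8th percentile), and a −log10 q of 174.5. It had 12.6 in replicate 1 and 10.1 in replicate 2.
Near the outer Spaca6 start, 2752 bp upstream of the hairpin, the other region had the lowest signal of all 26, 4.55 (2.32nd percentile). It had 5.63 in replicate 1 and 3.47 in replicate 2, where only the pseudoreplicated list held it. Its sequence (mm10, plus strand, chr17:17827960-17828160) is shown as the nearest to the hairpin, and none of the letters searched were found in it. The summit is in a Spaca6 intron, 736 bp after the nearest annotated start, and the printed bases do not hold that start.
Spaca6 outer start: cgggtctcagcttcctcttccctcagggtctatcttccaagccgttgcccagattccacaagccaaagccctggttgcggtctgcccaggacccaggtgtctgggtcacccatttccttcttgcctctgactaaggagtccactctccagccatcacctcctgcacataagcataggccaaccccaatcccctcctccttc
In the pseudoreplicated lists 1 more region at that start went the other way, with 2.42 in replicate 1 and 3.67 in replicate 2, and 2 more were found in replicate 1 only.

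Mir126a lies at chr2:26591357-26591429, plus strand, in Egfl7, a gene of blood vessel cells, with Mir126b on the opposite strand. The GENCODE position falls in an exon of at least 1 Egfl7 transcript and in an intron of Gm20532, and the first Egfl7 start is 11343 bp upstream. The conservative regions lay before the gene rather than in it. They had their summits 24981, 19306 and 12736 bp upstream of the hairpin, with signals of 10.2, 8.13 and 9.27, and the other one was at Agpat2, a gene of lipid synthesis, with 5.67.
The nearest of these ended 1143 bp before the first Egfl7 start, so no conservative region was within 1 kb of an Egfl7 start. Replicate 1 gave 10.4, 8.27 and 10.9 for the upstream regions, and replicate 2 gave 9.98, 6.97 and 7.59. An internal Egfl7 start, 4102 bp upstream of the hairpin, had a region of 4.91 in the IDR list of both libraries, with 4.13 in replicate 1 and 5.00 in replicate 2.
The farthest of the conservative regions was the strongest in that list and in replicate 2. In replicate 1 the region 12736 bp upstream was higher, with 10.9 against 10.4. The farthest region (mm10, plus strand, chr2:26566276-26566476) is shown with a RUNX match (TGTGGT, on the other strand) and a MYB match (CAACTG, on the other strand) in capitals.
Mir126a upstream region: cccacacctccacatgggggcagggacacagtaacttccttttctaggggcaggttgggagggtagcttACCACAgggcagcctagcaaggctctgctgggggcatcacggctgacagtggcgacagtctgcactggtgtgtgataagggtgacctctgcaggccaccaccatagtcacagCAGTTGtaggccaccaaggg
Of 5 endothelial markers (Cdh5, Pecam1, Kdr, Tek and Emcn), 1 had a region within 1 kb of a TSS in the conservative list, 0 in replicate 1's IDR list and 2 in replicate 2's. Over all protein-coding genes the shares were 53.7%, 54.1% and 47.4%. In the pseudoreplicated lists 5 had one in replicate 1 and 3 in replicate 2, beside 65.6% and 63.9% of all protein-coding genes. The summed signal of the 5 was 27.7 in the pseudoreplicated list of replicate 1 and 18.1 in that of replicate 2, and the part of such cells in the Mir126a regions was not tested.

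Across the 7 windows many of the regions were at gene starts, and whether their signals stood below or above those of all regions turned on the list. Of the 26 summits 16 (61.5%) were within 1 kb of an annotated TSS, against 41.7% of all 31532. In the conservative list the median signal was 7.01 in the windows and 8.33 over all regions, and 9 of the 26 were above the median of all. The window median was also the lower one in the IDR list of both libraries and in both lists of replicate 1. It was the higher one in the other 4 lists, for example 7.40 in the windows and 7.21 over all regions in the replicate 2 IDR list, and 5.46 and 5.14 in the pseudoreplicated list of both libraries. Widths were close, with medians of 628.5 bp in the windows and 598 bp over all regions. By annotation 15 summits were intergenic, 6 intronic and 5 exonic.

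**Figure D3:**
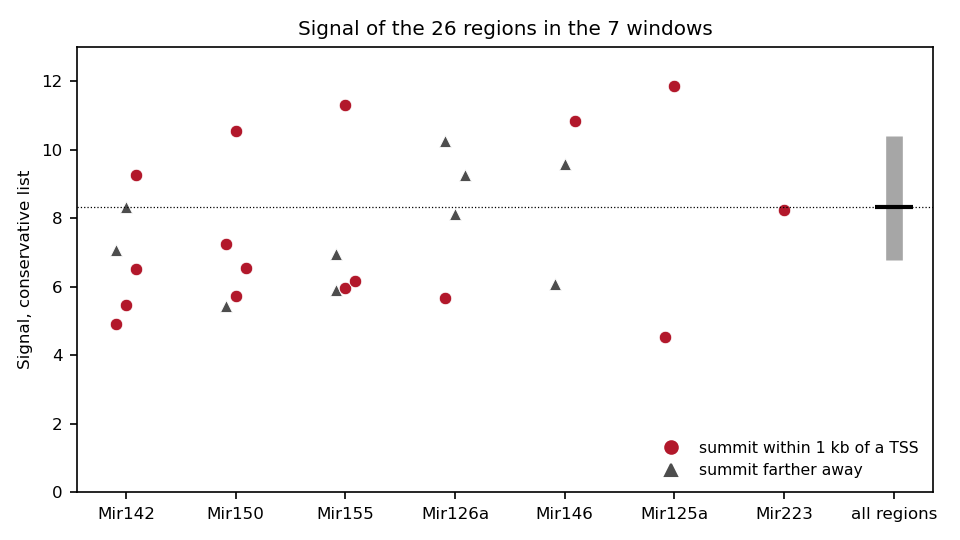
Signal in the conservative list (y axis) of the 26 regions by microRNA gene, with circles for summits within 1 kb of a TSS and triangles for the others, and at the right the median (line) and interquartile range (bar) of all 31532 regions. The 26 regions run from 4.55 at Spaca6 to 11.9, also at Spaca6, and 9 lie above the median of all regions, 8.33.

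When all 8 lists were merged the windows held 55 regions, of which 18 were in every list. Signals in both libraries were available for 32 of them, 17 were found in replicate 1 only, 2 in replicate 2 only and 4 in neither library's own lists. In the pseudoreplicated list of both libraries, 30.8% of the 52 window regions were in replicate 1 only, near the 27.3% of all 86702. In replicate 2 only the shares were 1.92% in the windows and 7.75% of all, and in both libraries 61.5% and 55.1%. Of the IDR regions of replicate 1 in the windows, 19 of 32 were also in replicate 2 (59.4%, 95% Wilson interval 42.3 to 74.5), against 56.5% of all its regions. In the other direction 18 of 19 were shared (94.7%, 75.4 to 99.1), against 87.5% of all. The intervals cover counting error only, and both hold the value of all regions.

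Replicate 1 had higher signals in general. Over all 48575 regions shared by the pseudoreplicated lists the median log2 ratio of replicate 1 over replicate 2 was 0.46, with an interquartile range of 0.20 to 0.74. Over the 32 shared regions of the windows it was 0.44, and 25 were higher in replicate 1. The 7 that were higher in replicate 2 included the host starts of Mir223, Mir142 and Mir126a (internal Egfl7 start), a Spaca6 start and the region over the Mir150 hairpin. In contrast, each of the 6 Mir155 regions, among them the host's start, was on the replicate 1 side of the general median.

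**Figure D4:**
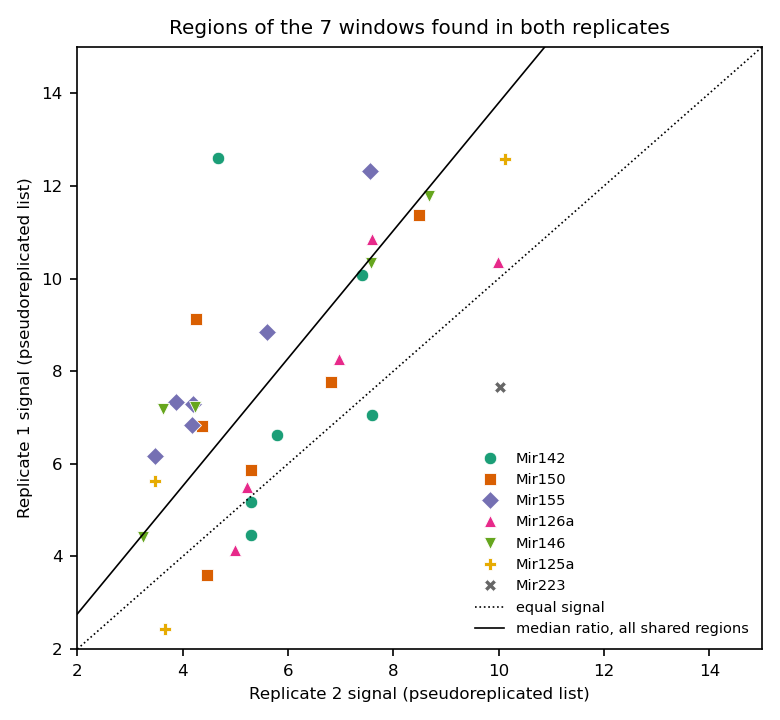
Signal in replicate 1 (y axis) against signal in replicate 2 (x axis) for the 32 regions of the 7 windows that both pseudoreplicated lists hold, coloured by microRNA gene. The dotted line marks equal signal and the solid line the median ratio over all 48575 shared regions. All 6 Mir155 points are above the solid line, and the Mir223 point is below the dotted one.

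Short letter patterns of blood transcription factors were counted in the 201 bases around each of the 26 summits, on both strands. GATA letters (AGATAA) were in 5 windows (19.2%) and in 6.53% of the 31531 windows of all regions. The 5 were those at the Mir223 host start, the second Flt3l region, the Mir155 regions 15.2 kb and 847 bp upstream, and the inner Spaca6 start. RUNX letters (TGTGGT) were in 8 windows (30.8%), against 23.1% of all.
PU.1 letters (GAGGAAGT) were in 2 member windows, against 7.85% of all, and C/EBP letters (TTGCNNAA) in 2, against 7.75%. MYB letters (CAACTG) were in 2, against 9.75%, and CTCF letters (CNAGGNGGC) in 2, against 10.3%, 1 of them the Tspoap1 region that parted the libraries. ETS letters (CCGGAAGT) were in 1, against 3.15%, AP-1 letters (TGANTCA) in 1, against 7.64%, E-box letters (CAGCTG) in 1, against 15.6%, and NF-kappaB letters (GGANTTTCC) in 1, against 0.812%. PU.1 and ETS letters share GGAAGT, so a site can be near both. The median GC content was 58.2% in the member windows and 54.7% over all windows. A match is a description of the letters and not of binding.

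The genes that make and use microRNAs were almost all open. Of 16 such genes 15 had a conservative region within 1 kb of a TSS, beside 53.7% of all 21938 protein-coding genes. Drosha had the highest signal, 14.7, with 14.5 in replicate 1 and 12.7 in replicate 2. Dgcr8, its partner, had 11.0, Xpo5 11.3, Dicer1 10.3 and Ago2, the slicing Argonaute, 7.65. Ran, which works with Xpo5 in export, had the lowest of the 15, 5.67. Ago4 was the exception: it had 2.74 in the pseudoreplicated list of both libraries and 3.67 in that of replicate 1, and was in no list of replicate 2.

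Most of the other microRNA genes known from blood also had open chromatin nearby. Of 39 such genes 32 (82.1%) had a conservative region within 25 kb, beside 53.4% of all microRNA genes and 64.9% of those with a RefSeq hairpin. They had a median of 2 regions and at most 9. Within 1 kb of the hairpin 5 had one (12.8%), near the 9.81% of all microRNA genes, namely Mir23a, Mir24-2, Mir27a, Mir132 and Mir212. Mir181a-1, Mir181b-1, Mir196a-2, Mir125b-1, Mir99a, Mir100 and Mir128-1 had none. Mir125b-1, whose mature arm shares the miR-125a-5p seed, had its nearest region 30122 bp away, and Mir125b-2 had 2 regions in its window. Mir146 had 3 regions, and Mir146b, whose mature arm shares the miR-146a-5p seed, had 6. Clustered genes such as Mir23a, Mir24-2 and Mir27a share their regions and are not separate observations, and the 2 regions of Mir99b and Mirlet7e are those of Mir125a.

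For each member the 2 microRNA genes, at least 100 kb away, with the most similar region counts over the 8 lists were found by the Euclidean distance of log2(count + 1). They were Mir702 and Gm23053 for Mir223, Gm44486 and Mir7070 for Mir142, and Mir6916 and Mir5107 for Mir150. Mir155 had Gm44454 and Mir1894, Mir146 had Mir8096 and Mir7231, Mir125a had Mir3060 and Mir7k, and Mir126a had Mir6988 and Mir6993. The distances ran from 0.32 for Mir125a and Mir3060 to 0.87 for Mir223 and Gm23053. Mir223, whose counts were 1 in both replicate 2 lists and 7 in the replicate 1 pseudoreplicated list, thus had the least close partners.

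Promoter regions of the labelled cell type were mostly present. Of 13 stem and progenitor genes 10 were open in the conservative list, 9 in replicate 1's IDR list and 8 in replicate 2's. Over all protein-coding genes the shares were 53.7%, 54.1% and 47.4%. Among the lists of each library, Ly6a was in none, Slamf1 was in replicate 1's pseudoreplicated list only, and Procr was in both pseudoreplicated lists. Ly6a, Slamf1 and Procr, which mark stem cells on their surface, were not in the conservative list. All 4 megakaryocyte genes, 2 of 4 erythroid genes, 2 of 8 granulocyte and monocyte genes, 1 of 5 B cell genes (Pax5), 1 of 5 T cell genes (Cd3d) and 1 of 5 endothelial genes (Cdh5) were open there. All of these lists but the megakaryocyte one thus lay below the 53.7% of all genes, the erythroid one narrowly.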

How the data were processed

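ATAC-seq peaks were used from 2 libraries of 1 group (HSC, replicates 1 and 2, in 8 lists on mm10). The authors deposited a signal per peak (column 7), whose control and scaling no header or label records. The authors also deposited a −log10 q and the offset of the summit from the peak's start. For the aligner, caller, thresholds and the transposase offset, the sources used here give nothing. Ranked lists were not used.

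With Python 3.11.15, numpy 2.4.6 and scipy 1.17.1, peaks of a list that overlapped were merged, and a region counted for a microRNA gene when it overlapped the gene or 25 kb on either side by at least 1 base. Promoters were any TSS ± 1 kb. Genes, hosts and hairpins came from GENCODE M21, and sequences from RefSeq on GRCm38.p6. Percentiles are ranks within 1 list, and a replicate's signal is that of its pseudoreplicated list for ratios. Letters were searched in 201 bp around the summit. The merging, windows and letter search were tested on simulated data. Depth is unknown, and Wilson intervals cover counting error only.

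The members and lists were chosen with earlier results of these data known. Named were all members, their hosts, the regions of the conservative list, the 2 most similar microRNA genes per member, and genes of the other lists without a region, and others were named after their values were seen. One of the regions near Mir150 is plotted but not described. Alternatives were the other lists, each library alone, windows of 10 and 50 kb, TSS distances of 500 and 2500 bp, unmerged peaks and peaks above the median signal. Since the libraries form 1 group, no test was made.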

Additional observations from a re-analysis of the deposited data

How the results depend on the processing

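The choice of list set how many regions the 7 windows held. The conservative list gave 26, the replicated list 46 and the pseudoreplicated list of both libraries 52, and each library alone gave 19 to 52. Peaks above the median peak signal of 6.65 left 14 regions, windows of 10 kb left 9, and unmerged peaks came to 42. The number of members with a region within 1 kb of the hairpin, 1 in the conservative list, was 2 in the IDR list of both libraries, 3 in the replicated and in the pseudoreplicated list, 0 to 3 in each library alone, and 4 with a distance of 2500 bp. A longer list holds more regions by its construction. The other 47 alternative values, 26 on the windows and 21 on the biogenesis and other microRNA lists, stayed within 1.5 times of those reported. For single members 57 values moved and 69 did not. Read depth is unknown, so a region missing from a list was not detected and may still be open. No paired analysis was possible because the 2 libraries form 1 group.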
